A study of Mus musculus with 2 samples.

Results

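Zymogen granule accessory proteins are proteins of the pancreatic secretory granule, or secreted with it, that are not themselves the main digestive proteases, lipases or amylases. The group described here holds 7 genes: Gp2, Zg16, Sycn, Cuzd1, Klk1, Rnase1 and Spink1. The members were selected on earlier results of these same data, in which Gp2 stood out, so that its difference between genotypes and all others of the same comparison are given as a description, without a test. A probe was taken for a member where its RefSeq accession, or the gene symbol in its description, current or older, was that of the member. Of 41174 probes, 8 matched a member, and they covered 6 of the 7 genes. Spink1 was not analysed here. Over the whole array, 16835 genes had a named probe and 16556 of them were measured, meaning that a probe was well above background.

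The RNA came from the pancreas of mouse pups at postnatal day 3. The mutant pups were homozygous for an altered allele of Glis3, written Glis3zf/zf and named Glis3KO in the labels, and the controls were wild type (Glis3WT). The Glis3 protein is a zinc finger transcription factor, related to the Krüppel family, that normal islets need. Each pool held RNA of 2 pups of 1 genotype, so each genotype had 1 sample and differences between pups and between genotypes cannot be told apart. From each pool 500 ng of total RNA was amplified and dye labelled, and 750 ng of each product was left for 17 hours on an Agilent oligonucleotide array of the mouse genome, which reads Cy3 and Cy5 from the same spots. The same pools were run on 2 arrays with the dyes exchanged: one carried the mutant in Cy5 and the wild type in Cy3, the other the reverse. The spread given below is therefore the standard deviation (SD) between those 2 arrays, a technical error. The labels name neither strain nor sex.

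Acinar cells of the pancreas store digestive enzymes, largely as inactive zymogens, in membrane-bound zymogen granules below the apical surface, and release them by exocytosis when cholecystokinin or acetylcholine stimulates the cell. The granule membrane and its lining carry proteins that help to pack the content, hold it against the membrane and let it out. Gp2 is the best known of these and is anchored in the membrane by a lipid tail, whereas Sycn and Zg16 sit on the inner side of the membrane.

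The arrays could show a fold in only part of the group. Each spot has a mean signal in each channel, and the scanner stops near 65329 in Cy5 and 65293 in Cy3; a spot at that ceiling is called saturated and gives a bound at most. Of the 6 genes with a probe, 4 had a probe without saturation (Gp2, Cuzd1, Klk1 and Rnase1), and Zg16 and Sycn did not. Between 26 and 48 spots per channel were saturated over the whole array. Ratios are mutant over wild type on the log2 scale after background correction and loess normalisation within each array, so that 1 is a 2-fold difference and 0 is none. A gene was counted as higher or lower where its mean ratio over both arrays was at least 2-fold and each array showed at least 1.5-fold in that direction. By this rule of size 1 of the 7 members, Gp2, was higher and 0 were lower, where 0.23% of the 16556 measured genes were higher and 0.151% were lower. Since the choice of members used this comparison, nothing is read from that count.

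**Figure D1:**
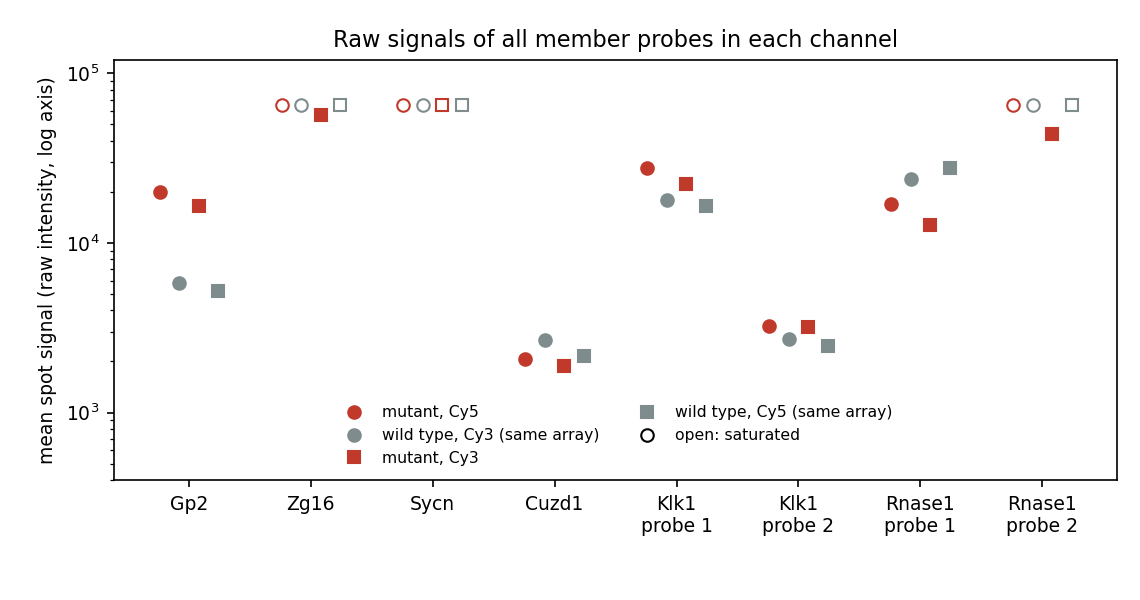
Mean spot signal (raw intensity, log axis) of each of the 8 member probes in the 4 channels. Circles are the array with the mutant in Cy5, squares the array with the mutant in Cy3, red the mutant, grey the wild type, and open symbols saturated spots. The Gp2 signals of the mutant, 19916 and 16459, lie above those of the wild type, 5773 and 5216, and all 4 Sycn spots are at the ceiling.

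Gp2 encodes the major glycoprotein of the zymogen granule membrane, a zona pellucida domain protein with a glycosylphosphatidylinositol anchor that is also shed into the juice and, on M cells of the gut, binds type I fimbriae of bacteria. Its gene start is shown because Gp2 carries the largest difference of the group. The 250 bases before the start that RefSeq annotates lie at chr7:119459273-119459522 on the minus strand of GRCm38.p6. They are written 5′ to 3′, with matches to the motifs searched in capitals:
Gp2: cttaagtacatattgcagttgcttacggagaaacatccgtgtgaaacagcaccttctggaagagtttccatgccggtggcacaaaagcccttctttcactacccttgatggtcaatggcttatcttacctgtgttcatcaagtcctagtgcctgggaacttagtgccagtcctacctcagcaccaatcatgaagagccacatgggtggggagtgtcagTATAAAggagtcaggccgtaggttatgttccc
The capitals mark TATAAA, the TATA box motif, which begins 32 bases before the annotated start on the coding strand.

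The probe for Gp2 (NM_025989; chromosome 7, 113321083 to 113322734 in the array's annotation, which the labels and headers tie to no genome build) was read from 1 spot per array. Its annotated span of 1652 bases is longer than the probe, and the files do not say which exons it covers. With the mutant in Cy5, its normalised log2 signal was 14.28 for the mutant and 12.34 for the wild type. With the mutant in Cy3, it was 14.20 for the mutant and 12.28 for the wild type. Both mutant channels were above both wild-type channels, and neither was saturated. The log2 ratios were 1.94 and 1.92, with a mean of 1.93 ± 0.01 (SD, 2 arrays), which is 3.81-fold higher in the mutant pool. Technical spread was pooled over genes not past the rule in the brightest of 10 classes, with mean log2 signals from 10.80 to 15.95. In that class the pooled SD between arrays was 0.15, and that of a mean of both arrays 0.10. The difference of Gp2 was larger than this spread, although the class is too wide to match its brightness closely. Gp2 stood at rank 15 of 16556 measured genes, counted from the highest mean ratio. In a bulk tissue sample, more cells that express a gene and more RNA per cell cannot be told apart.

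**Figure D2:**
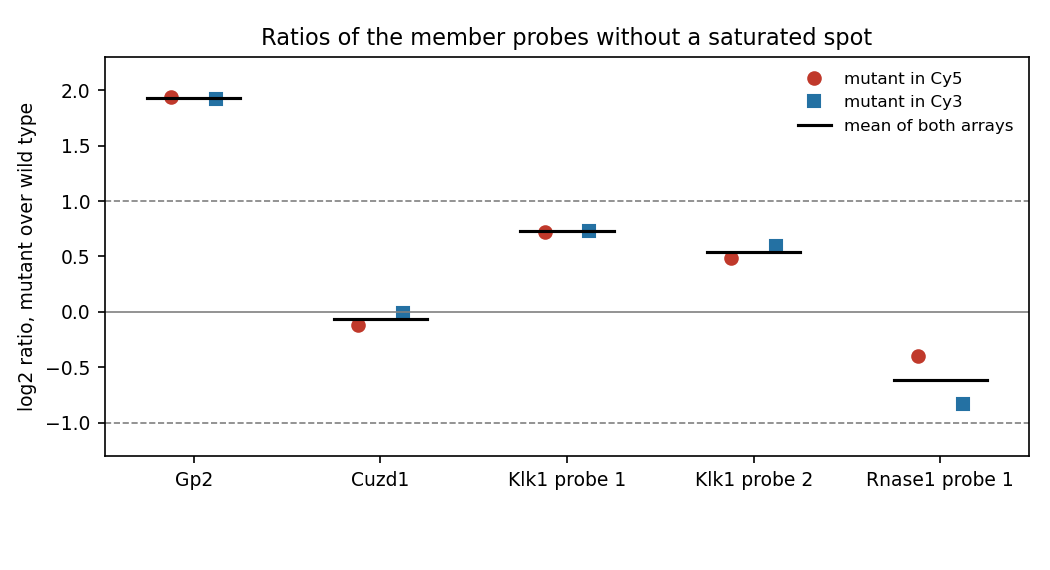
Log2 ratio of mutant over wild type for the 5 member probes without a saturated spot. Red circles are the array with the mutant in Cy5, blue squares the array with the mutant in Cy3, black bars their mean, and dashed lines mark 2-fold in either direction. Gp2 at 1.93 is the only member probe outside the dashed lines, and Rnase1, at -0.40 and -0.83, has the widest gap between arrays.

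The genes around Gp2 on chromosome 7 gave a local comparison. Of the 5 annotated genes on each side in the RefSeq order, 5 of the 10 were measured: Gprc5b, Gpr139, Umod, Acsm5 and Acsm2. Their mean log2 ratios ran from -0.00 (Gpr139) to 0.11 (Acsm2), and none passed the rule of size. All were much dimmer than Gp2, with raw signals from 81 (Acsm5) to 662 (Umod) against 5216 to 19916. Negative control spots had a 95th percentile of 61 to 76, so Acsm5 was near the floor. The comparison is limited by these low signals. Umod, which encodes uromodulin of the kidney, a zona pellucida domain protein close in sequence to Gp2 and its next annotated neighbour, had ratios of -0.03 and 0.12 and a mean of 0.04. A list of zona pellucida genes without Gp2 and Cuzd1 had 12 measured, of which 0 were higher and 0 lower, with a median of -0.01. One of them, Zp3r, is a sperm receptor for the egg coat and does not itself carry that domain. The listed genes ran from -0.43 for Zp3, an egg coat protein, to 0.29 for Dmbt1, a mucosal scavenger receptor protein. Some of them were dim, such as Zp2 at raw signals of 71 and 88 in the mutant.

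The 5 measured genes outside the group whose pair of ratios lay nearest to that of Gp2 were Myl2, Myh4, Myh7, Reg3g and Reg3a. Likeness was the straight-line distance over the 2 arrays in log2 units, from 0.08 for Myl2 (1.87 and 1.88), a ventricular and slow muscle myosin light chain, to 0.19 for Reg3a (2.08 and 2.05), a secreted lectin of the regenerating family. Myh4 and Myh7 are myosin heavy chains of fast and of slow or cardiac muscle, at distances of 0.11 and 0.15, and Reg3g, a lectin that binds bacteria, lay at 0.18. Wild-type raw signals of these 5 genes ran from 98 (Myl2) to 204 (Myh7), against 5773 and 5216 for Gp2. The offset of 50 added in background correction draws ratios of dim probes towards 0 and hardly alters bright ones. The likeness can therefore depend on that setting, which was not tested. A likeness over 2 values describes these arrays only.

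**Figure D3:**
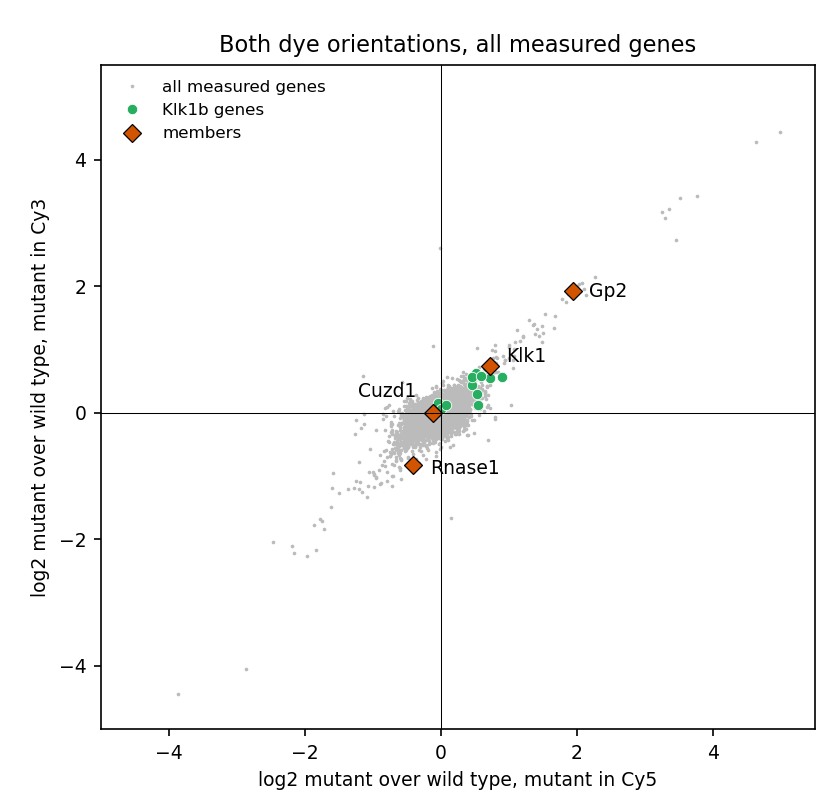
Log2 ratio of mutant over wild type of every measured gene that was not saturated in both genotypes (grey dots), with the mutant in Cy5 on the horizontal axis and the mutant in Cy3 on the vertical axis. Orange diamonds are the 4 members with a ratio and green dots the 12 measured Klk1b genes. Gp2 lies at 1.94 and 1.92, Klk1 at 0.72 and 0.73, and Cuzd1 close to the origin.

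Zg16 and Sycn, the other proteins of the granule's inner membrane face, could not be compared. Zg16 encodes a small lectin-like protein that binds glycosaminoglycans and helps to gather the content at the membrane. Its probe (NM_026918, described in the files as a RIKEN cDNA; chromosome 7, 121100055 to 121100114) was saturated in both genotypes with the mutant in Cy5, and in the wild type alone on the other array. There the mutant signal in Cy3 was 56940, below the ceiling. As both genotypes were saturated on the first array, no fold over the arrays is given. Sycn encodes syncollin, a granule protein that helps vesicles to fuse with each other and the cell surface. Its probe (NM_026716; chromosome 7, 23948012 to 23948071) was saturated in all 4 channels and gives no ratio. A difference between the genotypes in either gene was not detectable at this end of the scanner's range.

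Cuzd1 encodes a granule membrane protein with CUB and zona pellucida-like domains and is known from acinar cells. Its probe (NM_008411; chromosome 7, 125621375 to 125621434) had normalised log2 signals of 11.05 (mutant) and 11.17 (wild type) with the mutant in Cy5. The other array gave 11.06 in both. Both mutant channels were below both wild-type channels, although the closest pair was equal to 2 decimals. The log2 ratios were -0.11 and -0.01, with a mean of -0.06 ± 0.08 (SD, 2 arrays). That mean was within the pooled SD of 0.10 of such a mean in the brightest class. Cuzd1 lay near the lower end of that class, and the class below it had 0.08. The sequence before the Cuzd1 start is shown as that of a granule membrane gene with no difference beyond the technical spread. It lies at chr7:131322293-131322542 on the minus strand of GRCm38.p6:
Cuzd1: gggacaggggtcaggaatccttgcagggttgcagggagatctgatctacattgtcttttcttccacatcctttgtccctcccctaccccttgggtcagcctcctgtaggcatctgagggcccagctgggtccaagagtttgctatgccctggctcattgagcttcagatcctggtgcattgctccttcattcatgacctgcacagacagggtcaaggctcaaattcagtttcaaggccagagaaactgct
It held none of the 5 motifs searched on either strand.

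Klk1 encodes tissue kallikrein, a serine protease that frees kinins from kininogen and is made in pancreas, salivary gland and kidney. It had 2 probes, both described in the files under the older name Klk6. The first (NM_010639; chromosome 7, 38303133 to 38303288) had normalised log2 signals of 14.74 (mutant) and 14.02 (wild type) with the mutant in Cy5. With the dyes exchanged it had 14.65 and 13.91. Both mutant channels were above both wild-type channels. The log2 ratios of 0.72 and 0.73 gave a mean of 0.73 ± 0.01 (SD, 2 arrays), which is 1.65-fold higher in the mutant and below the 2-fold of the rule. Klk1 stood at rank 71 of 16556 from the highest. The second probe (chromosome 7, 38299850 to 38301905), whose accession list covers 4 genes (Klk1, Klk1b11, Klk1b3 and Klk1b9), had 11.69 and 11.20 on the first array and 11.83 and 11.24 on the other, mutant before wild type. Its ratios of 0.49 and 0.59 had a mean of 0.54 ± 0.07 (SD, 2 arrays), or 1.45-fold, in the same direction as the first probe. Another probe, described as Klk1, carries the accession NM_010645, which is now the gene Klk1b1, and was counted there.

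The start of Klk1 is shown because Klk1 is the member with the next largest positive ratio after Gp2 and lies in a cluster of near-identical genes. The 250 bases before its RefSeq start lie at chr7:44225110-44225359 on the plus strand of GRCm38.p6, with motif matches in capitals:
Klk1: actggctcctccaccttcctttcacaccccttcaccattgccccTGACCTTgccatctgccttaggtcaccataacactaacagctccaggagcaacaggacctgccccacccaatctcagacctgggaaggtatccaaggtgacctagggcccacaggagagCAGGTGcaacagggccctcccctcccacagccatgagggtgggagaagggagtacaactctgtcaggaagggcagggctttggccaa
Both capital runs match on the strand opposite to that printed. The one whose complement reads CACCTG, the E-box part of the binding site of the acinar factor PTF1, begins 87 bases before the start. The one whose complement reads AAGGTCA, the site of the nuclear receptor Nr5a2, begins 206 bases before it.

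The motifs searched on both strands of the 250 bases were TATAAA of the TATA box, CACCTG for the E-box and TTTCCC for the other element of the PTF1 site, AAGGTCA for Nr5a2 and TGGGGGGT as a core of the Glis site. None of the 5 contains another. The RefSeq promoter table held 5 of the 7 members, and the windows of the 4 with a ratio were searched. Of 32851 RefSeq promoters cut to the same length, 12.4% held the TATA box motif, 17.2% the E-box, 21.9% the other PTF1 element, 4.08% the Nr5a2 site and 1.36% the Glis core. The Glis core was in none of the windows of Gp2, Klk1, Cuzd1 and Rnase1. A match is a run of letters in this window, and no match says only that these letters are not in it.

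The kallikrein genes form a run on chromosome 7 in which Klk1 comes last, next to Klk1b genes, copies of Klk1 that expanded in rodents. Among the 22 measured genes of the family apart from Klk1, 0 were higher and 0 lower by the rule of size, with a median of 0.15, from -0.09 (Klk9) to 0.73 (Klk1b3). A smaller step of at least 25% higher on each array, chosen after the values were seen, was passed by 7 of 12 measured Klk1b genes (Klk1b3, Klk1b4, Klk1b8, Klk1b11, Klk1b16, Klk1b21 and Klk1b26), where 1.23% of all measured genes passed it. The 7 had mean ratios from 0.45 to 0.73. The other 5 were Klk1b24 at 0.41, Klk1b5 at 0.34, Klk1b27 at 0.10, Klk1b1 at 0.06 and Klk1b9 at 0.03, and Klk1b5 had 1 saturated spot. Of the 12 genes, 11 were above 0 on both arrays, and Klk1b1 was not (-0.04 and 0.16). The median of the 12 was 0.48, and that of the 10 other measured genes of the family, in which Klk12 at 0.50 alone passed the smaller step, was 0.05.

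These genes resemble each other closely in sequence, so the signal of one probe can come from several transcripts. By their accession lists 10 of the 12 Klk1b probes belong to 1 gene and 2 to several genes, and 0 list Klk1. Among the 10, 6 passed the smaller step, with a median of 0.51. Klk1b26 had a second, dimmer probe with a mean of 0.14, against 0.59 for the first, so the probes of this gene disagree in size. The first, by which Klk1b26 was counted as past the smaller step, is described as Klk13. It was named Klk1b26 through another entry of its accession list, whereas the dimmer probe is described as Klk26. Whether RNA of Klk1 contributed to the signals of the Klk1b probes was not tested. With median centring of each array in place of loess, 4 of the 12 passed the smaller step. Under that centring 9 of the 12 were above 0 on both arrays, against 11 with loess. The mean ratio was above 0 for 11 of the 12, against 12 with loess.

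**Figure D4:**
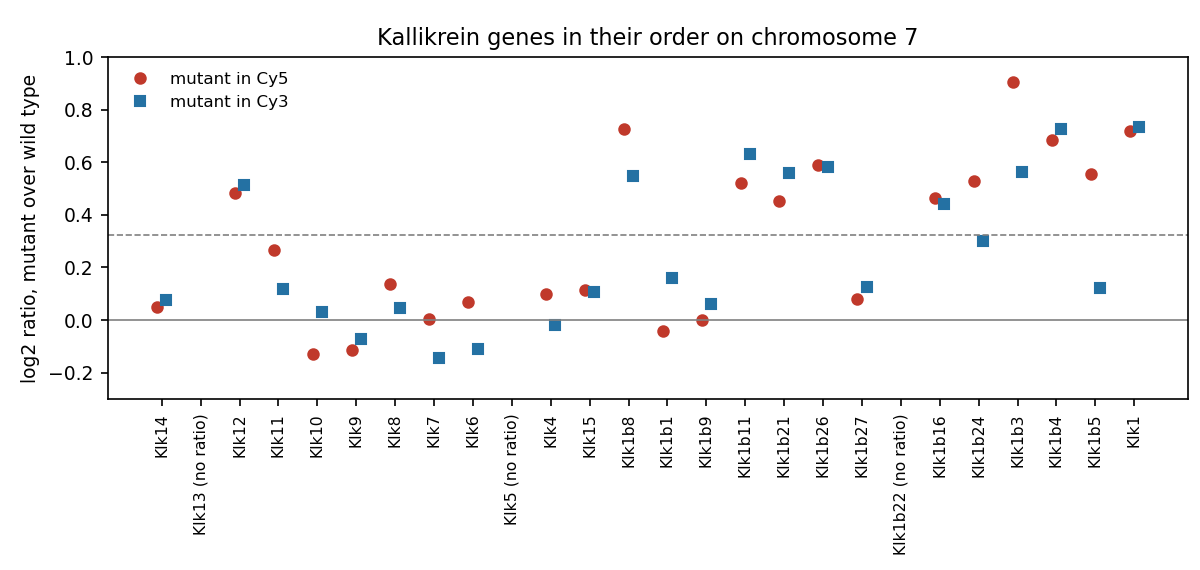
Log2 ratio of mutant over wild type of the kallikrein genes in their RefSeq order along chromosome 7, with the mutant in Cy5 (red circles) and in Cy3 (blue squares). The dashed line marks 25% higher, and genes without a measured ratio are labelled. Klk1, at the right end, lies at 0.72 and 0.73, and 7 Klk1b genes lie above the line on both arrays.

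Rnase1 encodes pancreatic ribonuclease, which digests RNA in food and is packed in the granule with the other enzymes. Its first probe (NM_011271; chromosome 14, 46239473 to 46239532) had normalised log2 signals of 14.03 (mutant) and 14.43 (wild type) with the mutant in Cy5. The array with the mutant in Cy3 gave 13.85 and 14.68. Both mutant channels were below both wild-type channels. The log2 ratios were -0.40 and -0.83, with a mean of -0.62 ± 0.30 (SD, 2 arrays), which is 1.53-fold lower and not past the rule. The SD between arrays of this probe was larger than the 0.15 pooled over the brightest class. That class is wide, so whether 0.30 is unusual at the brightness of this probe cannot be told from it. The second probe (chromosome 14, 46239726 to 46239785) gave saturated wild-type spots on each array, and a saturated mutant spot on one. The mutant signal on the other array was 43633, below the ceiling. As both genotypes were saturated on the first array, no fold over the arrays is given for this probe. Among 13 measured genes of the ribonuclease A family 0 were higher and 0 lower, from -0.11 (Ang2, an angiogenin) to 0.13 (Rnase2b, an eosinophil-type ribonuclease), with a median of 0.02. Some of them were dim, such as Ear10 at raw signals of 94 and 96 in the mutant.

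The 4 members with a ratio thus spread in both directions, in the order Gp2 (1.93), Klk1 (0.73), Cuzd1 (-0.06) and Rnase1 (-0.62). Each neighbouring pair in that order differed by more than the pooled SD between arrays of 0.15 in the brightest class. That SD describes the ratio of 1 gene and not a difference between genes, and for Rnase1 the SD was 0.30. The median of the 4 members was 0.33, where the median of all measured genes with a ratio was 0.00. With the mutant in Cy5 the median was 0.30, and with the mutant in Cy3 it was 0.36. Of the 7 members 5 lie on chromosome 7, which holds 8.86% of all measured genes, and Rnase1 lies on chromosome 14.

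Spink1 belongs to the Kazal family of protease inhibitors, small proteins that block serine proteases such as trypsin. Of its 12 listed relatives 5 were measured, and 0 were higher and 0 lower. They ran from -0.21 for Spinkl to 0.14 for Spink2, with a median of 0.00. Spinkl, Spink8 and Spink12 were dim, with raw signals from 71 to 125, near the negative control spots. A difference in those genes could hardly have been seen. Spink2 and Spink4 were brighter, from 260 to 367.

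Genes of the rest of the zymogen granule were described from lists drawn up with earlier results of these data known. Of the 20 measured enzymes of the granule content, 14 were saturated in both genotypes on at least 1 array, so acinar transcripts were at the scanner's ceiling in both pools. Among the 6 with a ratio 0 were higher and 1 was lower. That gene was Ctrl, a chymotrypsin-like protease, with ratios of -1.08 and -1.15 and a mean 2.16-fold lower. The highest of the 6 was Pnlip, pancreatic lipase, at 0.20, and their median was -0.06.

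The machinery that carries granules to the apical membrane and fuses them with it showed small ratios in one direction. Among 23 measured genes of granule membrane and release, 0 were higher and 0 lower, and 18 were below 0 on both arrays, against 1 above 0 on both. Their median was -0.10, and the highest was Dnajc5, a vesicle chaperone, at 0.10. Over all 16535 genes with a ratio, 5047 were below 0 on both arrays and 5353 above. The difference of Gp2 of 1.93 was thus not shared in size by any of the 23.

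Transcription factors and receptors of acinar cells also gave 0 higher and 0 lower among 14 measured. They ran from -0.85 for Rbpjl, a subunit of PTF1, to 0.52 for Ptf1a, the subunit of the same complex that binds the E-box, and had a median of -0.01. Regenerating proteins, secreted lectin-like proteins that acinar cells can make, gave 4 higher and 0 lower among 6 with a ratio. These were Reg3b at 4.71, Reg2 at 3.10, Reg3a at 2.06 and Reg3g at 2.04, and Reg3d at -0.18 was the lowest.

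**Figure D5:**
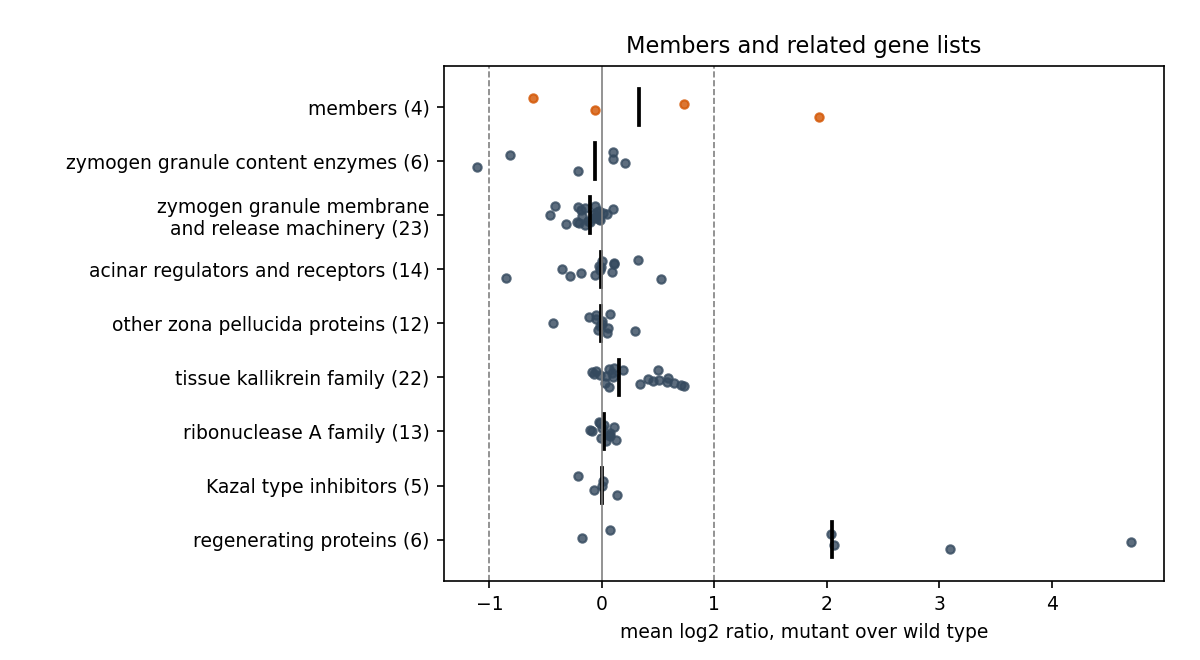
Mean log2 ratio of mutant over wild type of each gene with a ratio (dots) in the group (orange) and in related lists (dark), with the number of genes in parentheses. Black bars are medians and dashed lines mark 2-fold in either direction. Gp2 at 1.93 lies to the right of every gene of the other lists except 4 regenerating proteins.

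Markers of other cell types were read beside the Gp2 and Klk1 differences. Skeletal muscle markers were higher for 7 of 7 measured genes, from 1.37 (Ckm) to 4.46 (Myl1). Their summed raw signal was 21387 and 19717 in the mutant against 2272 and 2182 in the wild type. Islet markers were lower for 6 of 7, from -4.16 (Ins1) to -0.51 (Iapp), with summed signals of 56072 and 42248 in the mutant against 229063 and 222788 in the wild type. Ins1 had 1 saturated wild-type spot and Ins2 had 2, so the ratios of both are limits and the wild-type sums are lower limits. Their part in the differences of the members was not tested.

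Salivary gland, kidney tubule and intestinal goblet and M cells also express Gp2 or tissue kallikreins. Salivary markers gave 0 of 8 higher, with a median of 0.02 and summed signals of 4551 and 3450 in the mutant against 5001 and 3868 in the wild type. Goblet and M cell markers gave 0 of 8 higher, with a median of 0.08 and sums of 3356 and 3507 against 3935 and 3343. Kidney tubule markers gave 0 of 5 higher, with a median of -0.02 and sums of 3049 and 2785 against 3828 and 2905. Some of these markers were dim in both pools, such as Kap at 81 and 117 in the mutant. Others were brighter, such as Lpo at 3086 and 1911 in the mutant. The sums of all marker lists add raw signals, without background correction or normalisation. With the mutant in Cy5, the median spot signal of the array was 208 for the mutant channel against 265 for the wild-type channel. With the mutant in Cy3, these medians were 210 and 207. A lower mutant sum on the first array can therefore arise without a lower normalised ratio. The part of these 3 tissues in the differences of Gp2 and Klk1 was not tested. Duct markers (0 of 8 higher, median 0.12) and endothelium (0 of 6, -0.35) stayed below the rule of size. Myeloid markers gave 0 of 6 higher by that rule, but 2 of 6 passed the step of 25% on each array by which the Klk1b genes were read. These were Lyz1 and Lyz2, and the accession list of the Lyz1 probe covers both genes. The other myeloid markers ran from 0.04 (Aif1) to 0.30 (Csf1r). The median of the 6 was 0.23, and the highest was Lyz2, a lysozyme, at 0.86. The summed signals were 23293 and 18947 in the mutant against 15318 and 13717 in the wild type. Lyz2 alone gave 16619 and 13039 of the mutant sums, and 9612 and 9086 of the wild-type sums. Mesenchyme markers also gave 0 of 6 higher and 2 of 6 past the smaller step. Their median was 0.27, the highest was Des, desmin of muscle and stellate cells, at 0.64, and the sums were 124510 and 91535 against 102142 and 117649. The mutant sum was thus the higher with the mutant in Cy5 and the lower with the mutant in Cy3. The part of myeloid and mesenchymal cells in the differences of Klk1 and the Klk1b genes was not tested. The probe for Glis3 itself had ratios of -0.02 and 0.01, and since neither labels nor files say where it lies relative to the altered part, it does not check the genotype labels.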

How the data were processed

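The members, gene lists and tests were chosen with earlier results of these data known. Per the file headers, the authors' scanner files hold mean spot intensity and median background intensity per channel, not normalised, and a log10 ratio computed by the software from processed signals. The deposited series table of log2 values equals the software's ratio of Cy5 over Cy3 within 0.002 for 99.99% and 99.98% of 41174 probes, with column medians of 0. The labels name Feature Extraction 7.5 and Rosetta Resolver 6.0, and the file headers give version 8.5.1.1. Control spots had weight 0, and 15 and 53 outlier spots were left out per the file headers' flags, while saturated spots were kept.

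Signals were corrected with normexp (offset 50) and normalised by loess (span 0.3) in limma 3.58.1 under R 4.3.3, and ratios were turned to mutant over wild type. Normalised channel signals are those after loess and Aquantile. Probes were named through RefSeq tables (GRCm38.p6): 23530 of 41174 matched. Each gene took the value of its brightest probe without saturation, or of its brightest probe if every one had a saturated spot. The arrays are a technical dye swap of 1 sample per genotype, so no p-value was computed. A change was at least 2-fold in the mean and 1.5-fold on each array. The normalisation was run on simulated data, in which the changed probes were of middle brightness and saturation was not modelled. A change in a probe as bright as that of Gp2 was therefore not covered. Genes named were all members, genes past the rule and the highest and lowest of each list (1 lowest gene is not reported here), neighbours of Gp2, the 5 genes nearest to it and Glis3. Klk1b genes and other kallikreins singled out were chosen after their values were seen. Alternatives changed the offset, centring, ratio source, array, probe choice, dim and saturated spots and outlier flags.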

Additional observations from a re-analysis of the deposited data

How the results depend on the processing

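Gp2 was the 1 member past the rule of size under every alternative run, with a log2 ratio from 1.87 (median centring) to 1.94. Of 71 alternative values, 65 stayed within the technical spread or the 1.5-fold limit of a count and 6 moved. A reversal was looked for in the Gp2 ratio alone, and 0 were found. The alternatives are not independent, since the series table repeats the software's ratio. Leaving out dim or saturated spots could not change the value of a bright probe without saturation, so the tally is no measure of robustness. Rnase1 was -0.40 and -0.83 on the single arrays and -0.37 as the median over its probes, which includes the saturated one. The median of the members was 0.27 with median centring and 0.29 with the median over probes. The number of Klk1b genes at least 25% higher on each array was 4 with median centring, against 7, and from 7 to 9 on single arrays. That count and its alternatives, among them 6 with probes that list 1 gene, were chosen after seeing the data. Except where the alternative's construction shows it, the cause was not tested. Over all genes, 38 were higher and 25 lower, against 49 and 42 with an offset of 0, and 50 and 44 with the software's ratio or the series table. No paired analysis was possible because each genotype has 1 sample. Signals at the scanner's ceiling limit Zg16, Sycn and 1 Rnase1 probe, and the number of arrays limits precision.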

Other observations

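Probes with no gene name here, but with a kallikrein in their description, were looked up after the values of the Klk1b genes had been seen. The probe described by the mouse kallikrein genes mGK-1 and mGK-2 had log2 ratios of mutant over wild type of 0.85 and 0.57, with a mean of 0.71. The probe of another kallikrein transcript had 0.45 and 0.42, with a mean of 0.43. A RIKEN clone described as weakly similar to kallikrein 5 had a mean of -0.10. Which current genes the first pair of probes reads cannot be told from their descriptions.

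Pla2g1b, a secreted phospholipase of the granule content, had ratios of -0.58 and -1.05 and was not past the rule of size. It was named after its value was seen.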
